A study of Homo sapiens with 2 samples.

Results

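The genes described here are 10 of the oxygen sensing and hypoxia-inducible factor (HIF) pathway: HIF1A, EPAS1, ARNT, HIF1AN, VHL, EGLN1, EGLN2, EGLN3, P4HA1 and CA9. They were chosen by name, with earlier results of these data known. A probe set was named for 9 of them among 17687 named genes. CA9, a carbonic anhydrase of the cell surface that is widely used as a marker of low oxygen, had none and was not analysed here. The data were whole-transcript microarray signals from DLD-1, an established human colorectal adenocarcinoma line. The siYY1 culture had been transfected with the siRNA Hs_YY1_1 against YY1, a zinc finger transcription factor, and the siControl culture with the AllStars negative control siRNA. Both siRNAs were used at 5 nmol/L with a lipid reagent, RNA was taken after 3 days, and the labels name no low-oxygen treatment. Each group was 1 culture on 1 array, and the knockdown rested on 1 siRNA.

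Cells read oxygen through enzymes that need it as a substrate. In its presence the EGLN prolyl hydroxylases modify the alpha subunits HIF1A and EPAS1, VHL recognises the modified subunit, and a ubiquitin ligase marks it for the proteasome. HIF1AN adds a hydroxyl group to an asparagine of the alpha subunit, which keeps coactivators away. When oxygen falls, the alpha subunits escape, pair with ARNT and activate genes of glycolysis, pH control, collagen modification and blood vessel growth, among them EGLN3, P4HA1 and CA9. Much of this control acts on protein stability, which an RNA measurement does not read.

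The question was which of these genes differ in RNA level when YY1 is targeted. With 1 array per group there is no replicate error and no test, and each difference describes these arrays, not the conditions. The number of arrays limits the precision. All differences below are siYY1 minus siControl on the log2 scale, which was inferred from the range of the values. A difference of 1 either way is 2-fold, the size used to count genes. In RNA from a whole culture, fewer cells that express a gene and less RNA per cell cannot be told apart. YY1 had no named probe set, so its own level was not analysed here, and which culture is which was taken from the sample titles. Signals of different probe sets were not compared with each other.

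The genes compared were the 8747 protein-coding ones with a signal of at least 7.50 on 1 or both arrays. Their median difference was -0.01 and the middle 90% lay between -1.28 and 1.18. In the siYY1 array 9.37% of them were lower by 2-fold or more and 7.92% higher by 2-fold or more. Of the genes past 2-fold, 45.8% were thus higher, against 33.4% in the values as deposited and 26.0% after centring each array on its median. To mark signals near background, a dim level was set at the 90th percentile of 20 genes restricted to other tissues. It was 6.36 in siYY1 and 6.62 in siControl. Of the 11 named epithelial markers 8 were bright enough to be compared, with a median difference of -0.09. EPCAM was at 16.47 in siYY1 and 16.29 in siControl, and CDX2 differed by -0.76. LGALS4, CDX1 and GPA33 were below the dim level on both arrays. Of the 24 named markers of fibroblasts, endothelium, leukocytes and blood, 20 were too dim to be compared. The exceptions were COL1A2, at 8.84 in siYY1 and 8.62 in siControl, ENG at 8.77 in siYY1 and 7.45 in siControl, CD14 at 6.95 in siYY1 and 7.67 in siControl, and HBA1 at 9.84 in siYY1 and 7.61 in siControl. Their part in the results was not tested.

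Of the 9 measured HIF pathway genes, 3 were 2-fold or more lower in the siYY1 array and 0 were 2-fold or more higher. The share of 33.3% lower stands beside the 9.37% of all genes compared, on only 9 genes. The 0 higher stands beside 7.92% of all genes compared. The 3 lower genes were EGLN3, VHL and P4HA1. The median of the 9 differences was 0.00, close to that of all genes compared. Of the 9, 4 were below 0 and 5 above, beside 50.4% of all genes compared below 0. All 9 passed the brightness minimum, EGLN3 only through its siControl signal. The place of EGLN3 in the count of 3 and in the 33.3% thus rests on the array where it was higher.

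**Figure D1:**
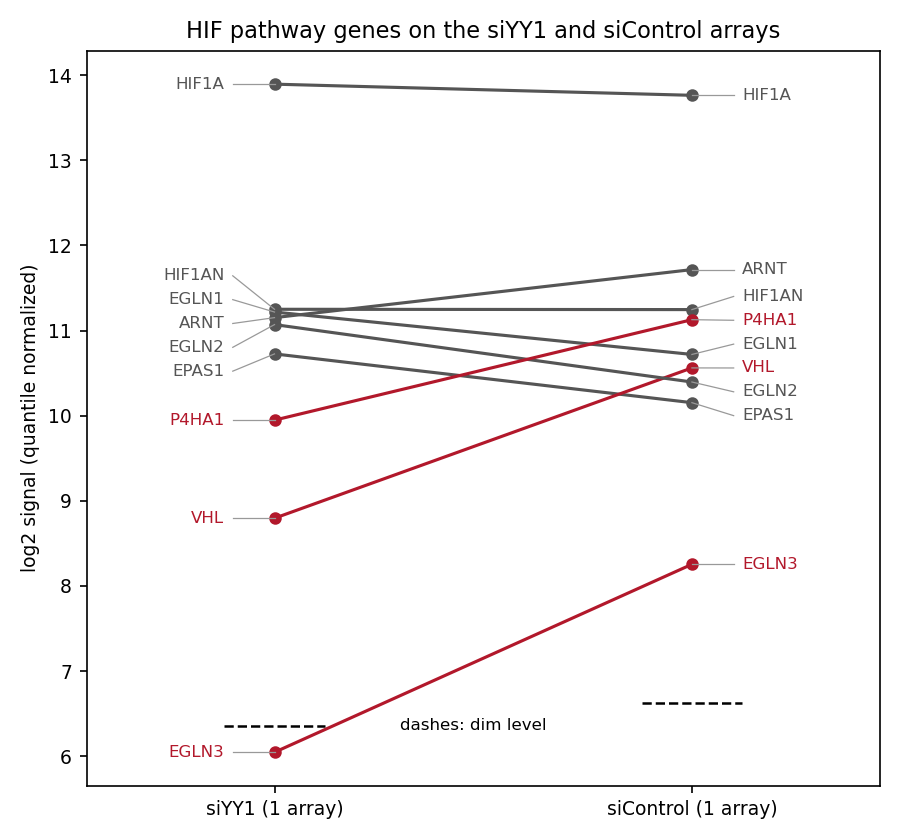
Quantile normalized log2 signal (vertical axis) of the 9 measured genes on the siYY1 array and the siControl array, 1 point per array, with lines joining the points of a gene. Genes lower by 2-fold or more in siYY1 are red, and the dashes mark the dim level of each array. EGLN3 lay below the dim level in siYY1 at 6.05 and above it in siControl at 8.25, while the HIF1A points differed by 0.13.

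Neither HIF1A nor EPAS1, the alpha subunits among these genes, was lower in the siYY1 array after quantile normalization, though HIF1A turned slightly below 0 under 2 other scalings. HIF1A, the broadly expressed alpha subunit, was at 13.89 in siYY1 and 13.76 in siControl. The difference of 0.13 was small beside the spread of all genes, and its sign turned to -0.02 in the values as deposited and -0.09 after centring on medians, where the median of all genes compared also moved, to -0.13 and -0.20. EPAS1, which encodes HIF-2 alpha and is known for its roles in iron uptake and erythropoietin control, was at 10.73 in siYY1 and 10.15 in siControl. It was thus 1.49-fold higher, and 19.8% of the genes compared had a difference at least as high. The EPAS1 difference lay 0.44 above that of HIF1A. ARNT, the shared beta subunit, was at 11.15 in siYY1 and 11.72 in siControl, a difference of -0.56 that was under 2-fold. It was below 0 under all 4 scalings of the arrays. HIF3A, another alpha subunit and not among the 10 genes, was below the dim level on both arrays, at 4.28 in siYY1 and 4.41 in siControl.

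The 3 EGLN prolyl hydroxylases did not lie on one side. EGLN1, which encodes PHD2, the main hydroxylase acting on HIF1A at normal oxygen, was at 11.22 in siYY1 and 10.72 in siControl, a difference of 0.50. EGLN2, which encodes PHD1, was at 11.07 in siYY1 and 10.40 in siControl, and its difference of 0.67 was the highest of the 9 genes. EGLN3, which encodes PHD3 and is strongly induced by HIF, was at 6.05 in siYY1 and 8.25 in siControl. It was 4.62-fold lower at -2.21, and 0.446% of all genes compared had a difference as low. EGLN3 entered that comparison only through its siControl signal, since its siYY1 signal was under the minimum of 7.50. Its rank is therefore a description and no support of its own. The EGLN3 difference lay 2.88 below that of EGLN2 and 2.71 below that of EGLN1. Because its siYY1 signal was 0.31 below the dim level, the size is uncertain. With dim signals raised to the dim level before the difference was taken, EGLN3 was at -1.90.

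HIF1AN, the asparaginyl hydroxylase also called FIH, was at 11.25 on both arrays, with a difference of 0.00. Its sign was not stable, from -0.23 after centring on medians to 0.00. VHL, the substrate receptor that binds hydroxylated alpha subunits, was at 8.80 in siYY1 and 10.56 in siControl. It was 3.40-fold lower at -1.77, and 1.41% of the genes compared were as low or lower. Unlike EGLN3, VHL was well above the dim level on both arrays, by 2.44 in siYY1. P4HA1, a catalytic subunit of the collagen prolyl 4-hydroxylase and a HIF target, was at 9.95 in siYY1 and 11.13 in siControl. It was 2.27-fold lower at -1.18, a place reached or passed by 6.15% of the genes compared.

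**Figure D2:**
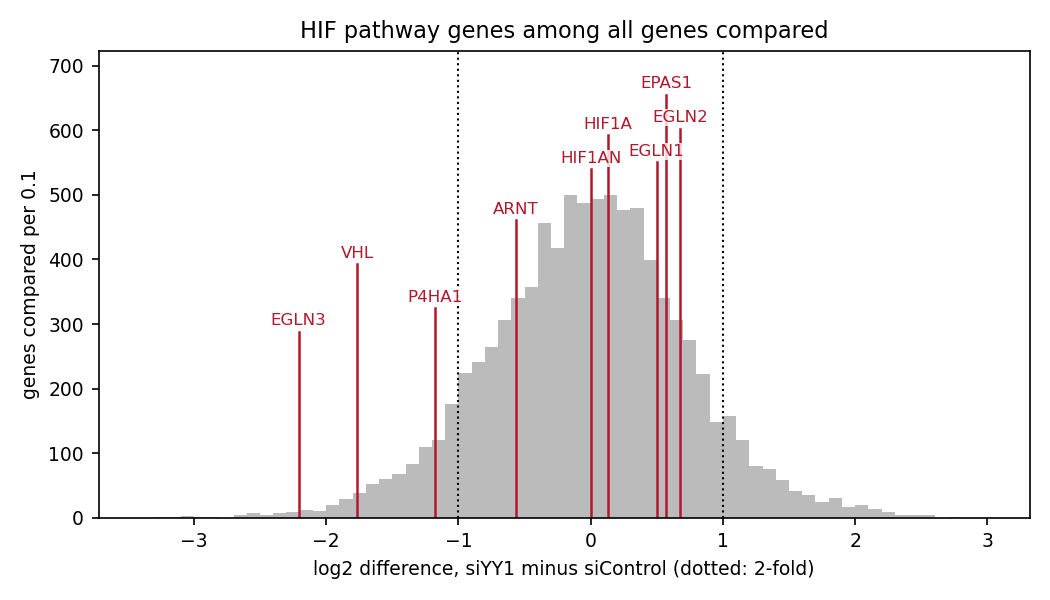
Number of genes compared per bin of 0.1 (vertical axis) by log2 difference, siYY1 minus siControl (horizontal axis), in grey over 8747 genes, with the 9 measured HIF pathway genes as red lines whose heights only separate the labels. EGLN3 at -2.21 and VHL at -1.77 lay in the lower tail, P4HA1 at -1.18 lay just past 2-fold, and the other 6 lay between -0.56 and 0.67.

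Where these genes begin is shown for the 3 paralogs that lay on opposite sides, for P4HA1 and for ARNT. HIF binds the hypoxia response element, whose core reads ACGTG or GCGTG, and a core of YY1 sites reads CCATNTT. Both strands of the RefSeq promoters (GRCh38.p14, 250 bases before to 50 after each start) were searched, and 9 of the 10 genes matched an entry, in 11 windows; VHL was the other gene. ACGTG was found in EGLN1, EGLN2, P4HA1 and CA9, 4 of these 9 genes, and in 21.4% of all 35116 promoters of this length. GCGTG was found in HIF1A and EPAS1, against 36.5% of all promoters. CCATNTT was found in ARNT only, against 15.6% of all promoters. The counts here are per gene and the shares per window, and HIF1A and EGLN2 had 2 windows each. The first base of the match lay at -13 from the start in EGLN1, at -49 in EGLN2, at -86 in P4HA1, at -18 in CA9 and at -113 in ARNT. In EGLN2 the 2 matches are the 2 strands of one palindrome. None of the motifs overlapped another motif. The 250 bases before the start are printed 5′ to 3′ on the gene's strand, with motif matches in capitals, a match on the opposite strand appearing as CACGT, and EGLN2 by the first of its 2 windows.
EGLN1, chr1:231422288-231422537, - strand: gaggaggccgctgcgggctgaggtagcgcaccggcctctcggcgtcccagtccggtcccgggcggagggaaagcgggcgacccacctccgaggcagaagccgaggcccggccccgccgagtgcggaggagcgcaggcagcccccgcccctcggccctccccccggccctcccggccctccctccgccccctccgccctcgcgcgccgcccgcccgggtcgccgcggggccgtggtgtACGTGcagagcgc
EGLN2, chr19:40798941-40799190, + strand: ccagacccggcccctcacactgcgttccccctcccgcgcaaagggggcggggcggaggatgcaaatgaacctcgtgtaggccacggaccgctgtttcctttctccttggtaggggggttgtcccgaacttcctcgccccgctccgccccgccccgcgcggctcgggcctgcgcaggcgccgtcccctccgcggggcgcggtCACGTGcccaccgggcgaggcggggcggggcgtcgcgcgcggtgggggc
EGLN3, chr14:33951075-33951324, - strand: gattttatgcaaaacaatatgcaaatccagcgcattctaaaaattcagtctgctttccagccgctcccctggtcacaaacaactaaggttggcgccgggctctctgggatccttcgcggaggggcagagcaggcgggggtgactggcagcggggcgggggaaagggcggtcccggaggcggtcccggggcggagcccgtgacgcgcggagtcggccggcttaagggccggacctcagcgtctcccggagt
P4HA1, chr10:73096867-73097116, - strand: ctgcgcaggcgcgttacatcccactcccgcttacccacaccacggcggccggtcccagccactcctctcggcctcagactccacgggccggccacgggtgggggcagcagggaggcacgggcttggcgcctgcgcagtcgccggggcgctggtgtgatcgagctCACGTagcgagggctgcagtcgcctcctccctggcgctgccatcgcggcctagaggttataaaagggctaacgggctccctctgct
ARNT, chr1:150876600-150876849, - strand: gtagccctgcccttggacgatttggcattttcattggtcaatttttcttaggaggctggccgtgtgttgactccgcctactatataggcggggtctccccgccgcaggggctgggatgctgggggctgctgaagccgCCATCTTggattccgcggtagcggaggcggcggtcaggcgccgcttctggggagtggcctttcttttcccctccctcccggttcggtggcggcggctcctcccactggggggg

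The window of EGLN3, the gene with the lowest difference, held none of the 3 motifs, which says only that these letters are absent there. ACGTG stood before genes on both sides of 0: EGLN1 at 0.50, EGLN2 at 0.67 and P4HA1 at -1.18. GCGTG stood before HIF1A at 0.13 and EPAS1 at 0.57. ARNT, with the single YY1 core, was at -0.56. Binding of HIF or YY1 at these motifs was not tested.

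The rest of the pathway was read from lists written from general knowledge, with earlier results of these data known. Among genes of the VHL ligase and of HIF turnover, 11 of 14 were named and 10 compared, with a median of -0.31. Of the 10, 3 were lower by 2-fold or more and 0 higher by that much, beside 9.37% and 7.92% of all genes compared. The core partners of VHL were within 2-fold: the adaptor ELOC was at 13.00 in siYY1 and 12.38 in siControl, a difference of 0.62, the adaptor ELOB differed by -0.23, the scaffold CUL2 by -0.29 and the RING subunit RBX1 by 0.29. These 4 were named after their values were seen. The lowest was WSB1, a HIF target and ligase subunit reported to act on VHL, at 10.09 in siYY1 and 11.61 in siControl, 2.87-fold lower at -1.52. OS9, a lectin of the endoplasmic reticulum also reported to bind HIF1A and EGLN enzymes, differed by -1.20. SIAH2, a ubiquitin ligase that acts on EGLN2 and EGLN3, was at 10.64 in siYY1 and 11.84 in siControl, also a difference of -1.20.

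Of 7 partners and coactivators 4 were compared, with a median of 0.14. CREBBP, an acetyltransferase recruited by HIF, was at 13.06 in siYY1 and 11.05 in siControl, 4.04-fold higher at 2.01, and was the only one of the 4 past 2-fold, beside 7.92% of all genes compared that were higher by 2-fold or more. CITED2, which competes with HIF for CREBBP, differed by 0.33, and the chaperones HSP90AA1 and HSP90AB1, which bind HIF1A, by -0.36 and -0.05. These last 3 were named after their values were seen.

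Of 20 other dioxygenases listed, which also use oxygen as a substrate, 18 were compared, with 9 below and 9 above 0 and a median of 0.06. By 2-fold or more 2 were lower and 2 higher, shares near the 9.37% and 7.92% of all genes compared. P4HTM, a membrane-bound prolyl hydroxylase that can act on HIF alpha subunits, was at 8.04 in siYY1 and 9.12 in siControl, a difference of -1.08. KDM5B, a histone demethylase, also differed by -1.08. TET3, which oxidises methylated cytosine, was 4.20-fold higher at 8.37 in siYY1 and 6.29 in siControl, where it was under the dim level, so its size is uncertain. It passed the brightness minimum only through its siYY1 signal, so its place among the 2 higher rests on that array. KDM3B, a histone demethylase, was at 1.14.

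The list of other collagen hydroxylases and their partner proteins had a median of -0.78 over the 8 of 11 genes that were compared. Among the 8 are P4HB, CRTAP at -0.63 and P3H4 at -0.07, which are not hydroxylases themselves. Of the 8, 6 were below 0, beside 50.4% of all genes compared. By 2-fold or more 3 were lower and 0 higher, beside 9.37% and 7.92%. PLOD2, a lysyl hydroxylase and HIF target, was at 12.49 in siYY1 and 13.87 in siControl, 2.60-fold lower at -1.38. P4HA2, the paralog of P4HA1, was at 10.61 in siYY1 and 11.73 in siControl, a difference of -1.12 close to the -1.18 of P4HA1. PLOD1, another lysyl hydroxylase, was at -1.06. P4HB, the disulfide isomerase that forms the partner subunit of P4HA1, was at 14.13 in siYY1 and 15.05 in siControl, a difference of -0.92. PLOD3 at 0.26 and P3H1 at 0.34 were above 0. P4HB, CRTAP, P3H4, PLOD3 and P3H1 were named after their values were seen. Over all 11 genes, without the brightness minimum, the median was -0.07.

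HIF targets outside glycolysis had a median of -0.55 over the 21 genes compared, of 43 listed and 41 named. Of the 21, 14 were below 0, beside 50.4% of all genes compared. By 2-fold or more 5 were lower and 0 higher, beside 9.37% and 7.92%. Over all 41, many of them dim, the median was -0.15, with 8 lower and 1 higher by 2-fold or more. Without the brightness minimum the shares of all protein-coding genes were 5.67% lower and 4.62% higher. DDIT4, an inhibitor of mTORC1 that several stresses induce, was at 9.38 in siYY1 and 11.16 in siControl, 3.44-fold lower at -1.78. BHLHE40, a transcriptional repressor, was at 9.25 in siYY1 and 10.94 in siControl, 3.23-fold lower at -1.69. PLOD2 and P4HA2, which this list shares with the collagen hydroxylases, were given above. The fifth was INSIG2, a brake on sterol synthesis, at -1.01, named after its value was seen.

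Of the targets outside glycolysis under 2-fold, the angiogenic factor VEGFA was at 11.68 in siYY1 and 12.23 in siControl, a difference of -0.55, the vasodilator peptide ADM differed by -0.33 and the mitophagy receptor BNIP3L by -0.99. KDM3A, a histone demethylase induced by HIF, was above 0 at 0.40, and RORA, a nuclear receptor, at 0.93. These 5 were named after their values were seen. Among glycolytic HIF targets 18 of 23 were compared, with a median of -0.67. Of the 18, 16 were below 0 and 3 at least 2-fold lower, beside 50.4% and 9.37% of all genes compared. The 3 were GBE1, the glycogen branching enzyme, at -1.08, LDHA at -1.32 and PFKP at -1.29. Of the other carbonic anhydrases, relatives of CA9, 14 were named and only 3 compared. By 2-fold or more 0 of these 3 were lower and 0 higher, beside 9.37% and 7.92% of all genes compared. CA2 was at 11.09 in siYY1 and 10.22 in siControl, a difference of 0.87. CA13 differed by -0.22 and CA5B by -0.64.

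**Figure D3:**
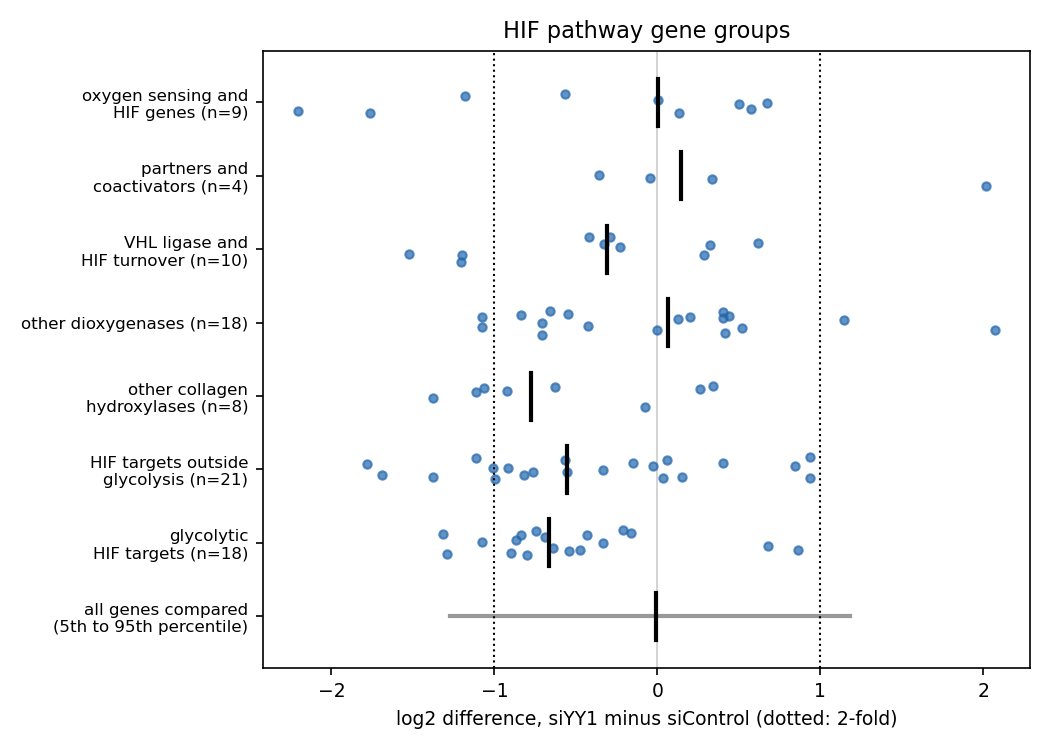
Log2 difference, siYY1 minus siControl (horizontal axis), of each gene compared in 7 groups, 1 point per gene, with black bars at the group medians and, in the bottom line, the median and the 5th to 95th percentile of all 8747 genes compared. The median was -0.78 in the collagen hydroxylases and their partner proteins, -0.55 in HIF targets outside glycolysis and -0.67 in glycolytic HIF targets. It was 0.00 for the oxygen sensing and HIF genes.

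The differences of EGLN3, VHL and P4HA1 were past 2-fold under every scaling of the 2 arrays. EGLN3 ranged from -2.24 to -1.90, VHL from -1.95 to -1.76 and P4HA1 from -1.39 to -1.17 over the alternatives run. EPAS1, EGLN1 and EGLN2 were above 0 under each scaling and ARNT below 0. Relative to the median of all genes compared, HIF1A was at 0.14 after quantile normalization and at 0.11 in the values as deposited.

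**Figure D4:**
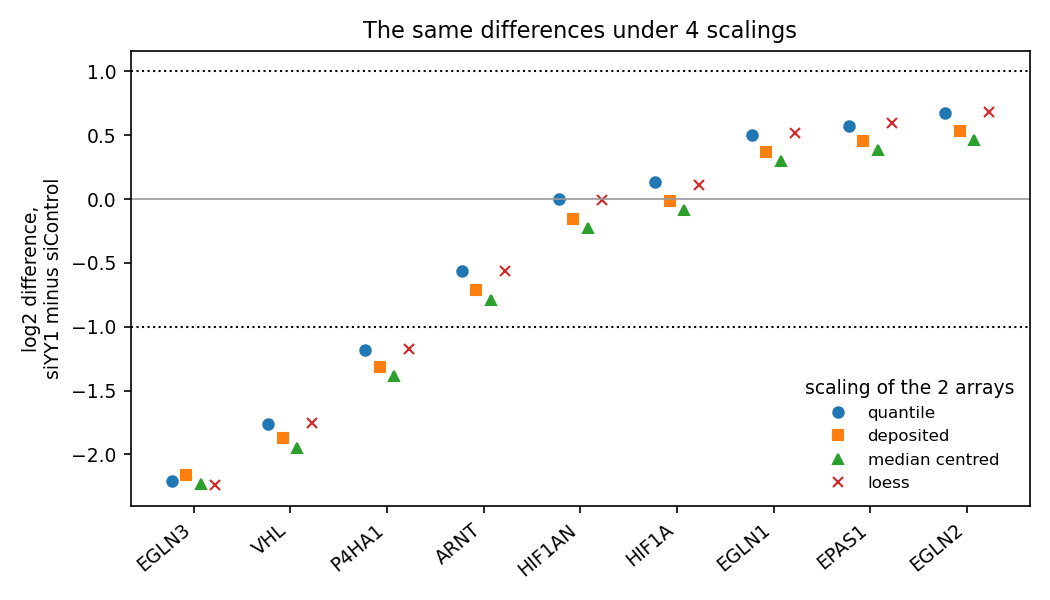
Log2 difference, siYY1 minus siControl (vertical axis), of the 9 measured genes under 4 scalings of the 2 arrays, 1 marker per scaling. HIF1A and HIF1AN changed sign between scalings, within -0.23 and 0.13, and the other 7 genes kept theirs.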

How the data were processed

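The file deposited by the authors holds processed values of 21448 probe sets for each array. The unit was taken as log2 from the deposited values, which ran from 2.51 to 17.92. Sense-strand cDNA was labelled with biotin, per the labels' protocols; their software and normalization were not given in the sources used here. Between arrays (siYY1 minus siControl) the deposited percentiles 25, 50 and 75 differed by 0.18, 0.07 and -0.13, so the pair was quantile normalized (set for gaps over 0.05). A platform table named 17709 probe sets with 1 gene each and none with several; 3739 were unnamed here. All gene IDs matched RefSeq (GRCh38.p14), which gave symbols and gene types. Values of 20 genes with several probe sets were averaged. Genes were compared if protein-coding and at or above the median (percentile 50) of the higher signal. By rule every measured member was named, and of each list at most the 4 farthest compared genes past 2-fold either way. Other genes named were chosen after their values were seen, as were the epithelial markers, the markers of other cells, the carbonic anhydrases and HIF3A.

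The members and lists were chosen with earlier results of these data known. Each group had 1 array, so no test was run; the computation was tested on simulated data. Protein sequences were not used here. Alternatives were the values as deposited, median centring, loess, the brightest probe set, a floor at the dim level, 1.5-fold and 3-fold thresholds, and other brightness minimums. Python 3.11.15, numpy 2.4.6, pandas 2.3.3, statsmodels 0.14.6 and matplotlib 3.10.9 were used.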

Additional observations from a re-analysis of the deposited data

How the results depend on the processing

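Of 105 values under alternatives, 89 were counted as the same. These were differences that kept their sign and side of 2-fold, and gene counts that stayed equal or within 1.5-fold. Some of the 89 could not have moved. Each measured HIF pathway gene had 1 named probe set, and taking the brightest probe set left every value as it was. The floor at the dim level changed only EGLN3 of these values. The median of the 9 HIF pathway genes, 0.00, turned to -0.153 in the values as deposited, -0.227 after centring on medians and -0.0061 with loess. HIF1AN, which is that median gene, had the same values, and HIF1A turned to -0.0152 as deposited and -0.0892 after centring. Those scalings also moved the median of all genes compared, to -0.13 as deposited, -0.20 after centring and -0.03 with loess. The dioxygenase median of 0.06 turned to -0.0446 as deposited, -0.119 after centring, -0.0163 with no brightness minimum and -0.0029 at the 75th percentile. The median of the list of collagen hydroxylases and their partner proteins passed 2-fold at -1.01 after centring and -1.06 at the 75th percentile of brightness. At 1.5-fold, 1 HIF pathway gene was higher, EGLN2, and 3 were lower, beside 19.4% and 21.8% of all genes compared. With the 75th percentile as the minimum 7 of the 9 were compared, since EGLN3 and VHL were then too dim. Of the 7, 1 was at least 2-fold lower, beside 8.67% of all genes compared at that minimum. Over all genes, 820 were lower and 693 higher at 2-fold, 1250 and 440 after centring, 1909 and 1699 at 1.5-fold, and 213 and 165 at 3-fold. Signal near background limits EGLN3. No paired analysis was possible because each group has 1 array.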
